A study of Mus musculus with 7 samples.

Results

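The cadherins, catenins and desmosome genes, which hold neighboring cells together, were compared between mammary glands of PRA transgenic mice and their wild-type littermates. They were chosen by name from the scanner files: every gene-measuring probe whose symbol is that of a numbered cadherin, a catenin, a desmocollin, a desmoglein, a plakophilin 1 to 4, plakoglobin (Jup), desmoplakin (Dsp) or periplakin (Ppl), with the catenin pattern also taking in Ctnnal1, Ctnnbip1 and Ctnnbl1, whose products resemble or bind catenins. This gave 113 probes of 48 genes, among 56605 probes with 37074 gene names. The rule uses names and no measured value, but it was written with earlier results of these data known. In all, 52 of these probes, of 31 genes, passed the filter, a gland signal well above background in all animals of 1 genotype or of both, and could be tested.

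All animals were nulliparous adults of the FVB strain, 20 to 25 weeks old, with glands taken in diestrus. The wild-type group held 3 animals. The PRA transgenic group held 4 bigenic animals that carry an additional A form of the progesterone receptor, switched on by GAL-4 under a CMV promoter, which is not restricted to the mammary gland, and their glands are labeled preneoplastic. RNA of 1 abdominal gland per animal, taken without the lymph node, carried the Cy5 label, and each array also received Universal Mouse Reference RNA, a Cy3-labeled pool from mouse cell lines that include mammary gland, skin, kidney and myoblast lines. Each spot thus gives a log2 ratio of gland over reference, where 0 means an equal signal in both channels and 1 means a doubled signal in the gland. The question was whether the genes of cell-cell junctions differ between the genotypes. No dyes were swapped, the 7 arrays lay on 1 slide with wild-type in row 1 and PRA transgenics in row 2, and slide row and genotype therefore cannot be told apart. In a whole gland, fewer cells of a type and less RNA per cell cannot be told apart either.

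Between 56.6% and 66.2% of the probes on an array were well above background in Cy5 and between 47.2% and 54.0% in Cy3, with the wild-type arrays higher than all PRA transgenic arrays in both channels. The share of probes above background thus moved with genotype also in the reference RNA, and its part in the results below was not tested. There were no saturated spots, and precision is limited by how few arrays there are. At the brightest probe of Pgr, the progesterone receptor gene, the log2 fold change was -0.65 with a standard error of 0.80 (limma adjusted p = 0.858). Of the 4 probes of Pgr, 2 passed the filter, and the dimmer of these gave -0.53 with a standard error of 0.77 (limma adjusted p = 0.886). Whether these probes read the transcript of the transgene was not tested. All 12 luminal and all 8 basal epithelial markers on the list could be tested, so the labeled tissue held both epithelial layers. The mean log2 ratio of T and B cell markers was 1.65 in wild-type replicate 1 and between -0.86 and -0.30 on the other arrays. The skeletal muscle markers lay between 2.07 and 3.13 in wild-type replicates 1 and 3 and PRA transgenic replicate 4, and between -0.79 and -0.41 on the others.

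Classical cadherins are transmembrane proteins that bind their like on the neighboring cell in the presence of calcium. Inside the cell, beta-catenin or plakoglobin binds the cadherin tail and alpha-catenin couples the complex to actin, while p120-catenin holds the cadherin at the membrane. Desmosomes are built in parallel: desmogleins and desmocollins span the membrane, plakoglobin and plakophilins bind their tails, and desmoplakin ties the plaque to keratin filaments. In the mammary epithelium, E-cadherin (Cdh1) is typical of luminal cells and P-cadherin (Cdh3) of myoepithelial cells, whereas VE-cadherin (Cdh5) belongs to endothelium and OB-cadherin (Cdh11) to stromal cells.

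No member probe passed limma's test with Benjamini-Hochberg adjustment over all 34284 probes tested, and the lowest adjusted p of a member was 0.463. The share of all probes with an adjusted p under 0.05 was 0.0117%, or 4 probes. At an unadjusted p under 0.05, 5 of the 52 member probes passed, 3 higher and 2 lower in PRA transgenics, beside 9.02% of all probes tested. Member probes at this threshold were 9.62% of those tested, a share near that background. The background was 4.54% for higher and 4.48% for lower probes. With at least a 1.5-fold difference added, 0 member probes passed as higher, beside 1.94%, and 2 as lower, beside 2.58%. The genotypes did not overlap at 3 member probes that were higher in PRA transgenics, beside 5.41% of all probes, and at 0 that were lower, beside 4.52%. The log2 fold change was above 0 at 22 member probes, or 42.3%, beside 54.2% of all probes. The median log2 fold change was -0.02 over the member probes and 0.02 over all probes, and the members ranged from -1.36 to 0.44. Of the member probes, 44 passed the filter through both genotypes, 8 through wild type alone and 0 through PRA transgenics alone. A probe that passes through 1 genotype alone tends to be high there, and all 8 had log2 fold changes below 0, from -1.05 to -0.04: Cdh9, Cdh15, both probes of Cdh6 and 1 dimmer probe each of Cdh13, Ctnnal1, Pkp2 and Ppl. Among all probes that passed through wild type alone, 61.4% were below 0. The count of 5 fell to 2 without wild-type replicate 1 (8.25% of all probes), wild-type replicate 2 (7.35%) or PRA transgenic replicate 3 (6.65%). It fell to 3 without wild-type replicate 3 (7.48%) or PRA transgenic replicate 2 (7.58%). It rose to 6 without PRA transgenic replicate 1 (8.79%) or PRA transgenic replicate 4 (12.3%).

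**Figure D1:**
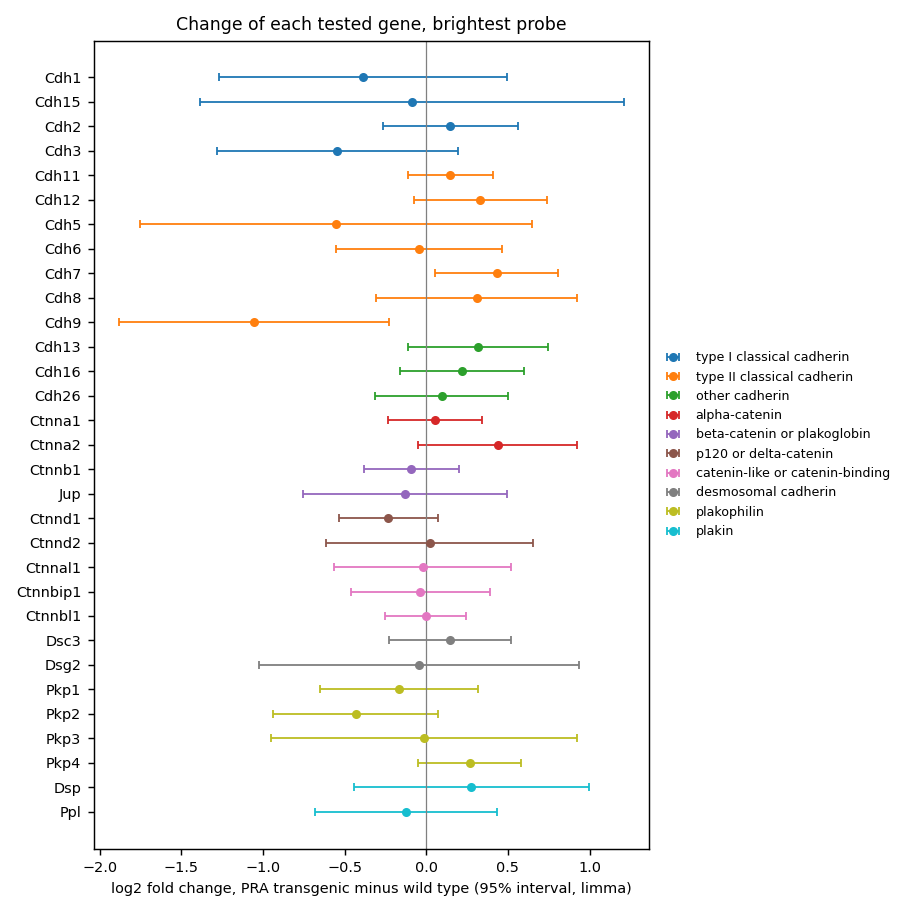
Log2 fold change (x axis, PRA transgenic minus wild type) of the brightest tested probe of each of the 31 genes (y axis), colored by role, with the 95% interval of limma. All intervals include 0 except those of Cdh7 and Cdh9, and 14 genes lie above 0 and 17 below. The probes of Cdh6, Cdh9 and Cdh15, all below 0, passed the filter through wild type alone, where such probes tend to be high.

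Among the classical cadherins of epithelium, Cdh1 and Cdh3 had lower means in PRA transgenics, but the genotypes overlapped for both and neither passed the test. The log2 ratio of Cdh1 was 4.80, 5.09 and 5.50 in wild-type replicates 1 to 3 and 4.01, 5.59, 4.90 and 4.46 in PRA transgenic replicates 1 to 4. PRA transgenic replicate 1 was the lowest array and PRA transgenic replicate 2 the highest, so the genotypes overlapped. The reference signal of Cdh1 was well above background on only 1 wild-type array and no PRA transgenic array, so its ratios rest on a dim denominator. In Cy5 alone Cdh1 differed by -0.65, where the genotypes overlapped too, and in Cy3 by -0.25. For Cdh1 the log2 fold change was -0.39 (standard error 0.37, 95% interval from -1.27 to 0.49, limma adjusted p = 0.809). Cdh3 had log2 ratios of 5.13, 5.42 and 4.66 in wild-type and 3.92, 4.78, 4.30 and 5.09 in PRA transgenics. PRA transgenic replicates 1 and 3 were below all wild-type arrays, and replicates 2 and 4 lay within the wild-type range. For Cdh3 the log2 fold change was -0.55 (95% interval from -1.28 to 0.19, limma adjusted p = 0.659). It passed an unadjusted p of 0.05 without PRA transgenic replicate 4, at -0.73. On none of the 7 arrays was the reference signal of Cdh3 well above background, and the gland signal was at least 7.27-fold that of the reference. Such bounds set the mean gland signal against the detection limit of Cy3 and are open to dye bias, since no dyes were swapped.

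N-cadherin (Cdh2), typical of neural and mesenchymal cells, was below the reference on all 7 arrays. Its log2 ratio was -2.63, -2.26 and -2.26 in wild-type and -2.16, -2.59, -2.11 and -2.09 in PRA transgenics. The lowest array of each genotype lay apart from the rest, and the genotypes overlapped, with a log2 fold change of 0.15 (95% interval from -0.26 to 0.56). M-cadherin (Cdh15), a cadherin of muscle precursors, was likewise below the reference on all 7 arrays, with log2 ratios from -3.33 to -1.51. Its 3 lowest and 3 highest arrays both held animals of each genotype, and its log2 fold change was -0.09 (95% interval from -1.39 to 1.21). The gland signal of Cdh15 was well above background on 3 wild-type and 2 PRA transgenic arrays. Of the 5 type I cadherin genes, Cdh4 could not be tested.

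VE-cadherin, the cadherin of endothelial junctions, was far above the reference on every array. The log2 ratio of Cdh5 was 7.64, 7.99 and 6.9997 in wild-type and 7.30, 5.61, 7.45 and 7.60 in PRA transgenics. PRA transgenic replicate 2 was the lowest of all arrays, and the remaining PRA transgenic arrays lay inside the wild-type range. Its gland signal in Cy5 was 10.31 on the log2 scale on that array, against 10.30 to 10.36 on the other PRA transgenic arrays, while its Cy3 signal was 4.70 against 2.71 to 3.07. Cy3 did not reach well above background at this probe on any of the 7 arrays, and the gland signal was at least 61.2-fold that of the reference. With all arrays the log2 fold change was -0.55 (95% interval from -1.75 to 0.65), and it was -0.09 without PRA transgenic replicate 2. The mean log2 ratio of 8 endothelial markers was 4.52 to 4.66 in wild-type and 4.68 to 4.90 in PRA transgenics, without overlap. In Cy5 alone these means did overlap, at 9.64 to 10.36 in wild-type and 9.88 to 10.22 in PRA transgenics, with wild-type replicate 2 the highest array. The list ran from Cldn5, the claudin of endothelial tight junctions, at a log2 fold change of -0.31 (limma adjusted p = 0.885) to Emcn, an endothelial sialomucin, at 0.78 (limma adjusted p = 0.332). The part of endothelial content in the values of Cdh5 was not tested.

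OB-cadherin varied little. Cdh11 had log2 ratios of -0.34, -0.55 and -0.57 in wild-type and -0.37, -0.29, -0.36 and -0.33 in PRA transgenics. Every array was below the reference, and wild-type replicate 1 lay among the PRA transgenic arrays. Its log2 fold change was 0.15 (95% interval from -0.11 to 0.41), and the other tested probe of Cdh11 gave -0.02. T-cadherin (Cdh13), which is anchored to the membrane by a lipid and binds adiponectin, was above the reference on every array. Its log2 ratio was 0.36, 0.91 and 0.87 in wild-type and 0.77, 1.19, 1.04 and 1.13 in PRA transgenics. Only PRA transgenic replicate 1 lay within the wild-type range, and the log2 fold change was 0.32 (95% interval from -0.11 to 0.74, limma adjusted p = 0.659). A further probe of Cdh13 gave 0.37, and a dim one, well above background on all 3 wild-type and no PRA transgenic arrays, gave -0.29.

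**Figure D2:**
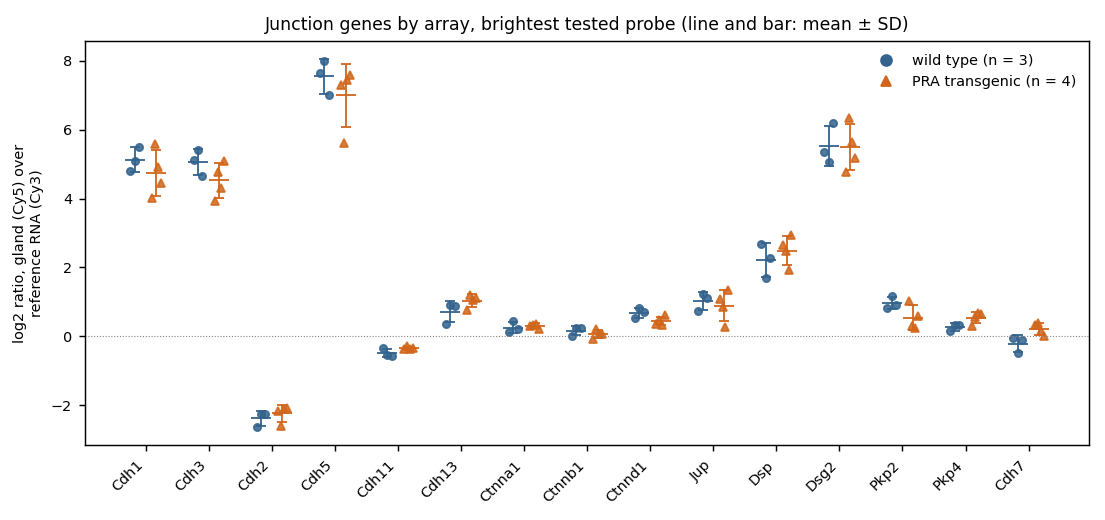
Log2 ratio of gland (Cy5) over reference (Cy3), y axis, on each of the 7 arrays for the brightest tested probe of 15 genes (x axis), with blue circles for the 3 wild-type and orange triangles for the 4 PRA transgenic animals and mean ± SD. The genotypes overlap for every gene shown except Cdh7, and PRA transgenic replicate 2 is the low value of Cdh5 at 5.61 and of Cdh2 at -2.59.

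Of the 13 type II cadherin genes, 7 could be tested with 9 probes, of which 4 had a log2 fold change above 0 and 5 below. The log2 ratio of Cdh7, a cadherin known from neural tissue, was -0.04, -0.48 and -0.11 in wild-type and 0.33, 0.39, 0.14 and 0.02 in PRA transgenics. All PRA transgenic arrays were above all wild-type arrays, though PRA transgenic replicate 4 and wild-type replicate 1 differed by little. The fitted log2 fold change was 0.43 (standard error 0.16, 95% interval from 0.05 to 0.81), with an unadjusted limma p of 0.0313 and an adjusted p of 0.504. Of the 5 probes of Cdh7, only this 1 passed the filter. In the fit without the filter, another passed the unadjusted threshold in the other direction, at -1.26, though well above background on only 1 array. The tested probe was dim: its Cy5 signal was well above background on all 7 arrays, but its Cy3 signal on only 2, both wild-type. It no longer passed the unadjusted threshold in Cy5 alone (0.42), with normexp background correction (0.23), with an intensity trend (0.43), with the replicate block (0.50), or without wild-type replicate 2 (0.29), PRA transgenic replicate 1 (0.39) or PRA transgenic replicate 2 (0.37).

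Cdh9, another neural cadherin, passed the filter through wild type alone, where its signal was higher, so its lower value in PRA transgenics is given as a description. It was outside the rule for named genes, because its genotypes overlapped, and is named after its values were seen. Its log2 ratio was 2.59, 1.93 and 2.70 in wild-type and 1.35, 1.43, 0.60 and 2.04 in PRA transgenics, where PRA transgenic replicate 4 lay above wild-type replicate 2. Cdh9's log2 fold change was -1.05 (95% interval from -1.88 to -0.23), with a limma adjusted p of 0.463. In Cy5 alone Cdh9 differed by -0.56, while the Cy3 signal, from the same RNA on every array, differed by 0.50. Cy3 was well above background on no array and Cy5 on 3 wild-type arrays and 1 PRA transgenic array. With normexp background correction the log2 fold change turned to 0.19. The call was also lost in Cy5 alone (-0.56) and without wild-type replicate 1 (-0.96) or wild-type replicate 3 (-0.91). Cdh6, known from kidney and neural tissue, was below the reference on all 7 arrays at -1.76 to -0.96 by its brightest probe. Cdh8 and Cdh12, both known from the nervous system, had log2 fold changes of 0.31 and 0.33 that did not pass the test.

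Among the remaining cadherins, Cdh16 of kidney epithelium and Cdh26, known from epithelia in allergic inflammation, had log2 fold changes of 0.22 and 0.09, and neither passed the test. Cdh26 was below the reference on all 7 arrays. The untested cadherins were Cdh4, Cdh10, Cdh17, Cdh18, Cdh19, Cdh20, Cdh22, Cdh23 and Cdh24, whose probes all failed the filter. Probes of Cdh10, Cdh20 and Cdh24 were well above background on no array at all.

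For 3 of the plaque genes, Ctnnb1, Jup and Pkp4, probes of the same gene gave different calls, and the start of each tested probe is printed here so that the parts of the transcripts they read can be told apart. The first 30 of the 60 bases of each probe are given as in the scanner files, 5′ to 3′, with no part in capitals.
Ctnnb1 A_52_P424585 (brightest): ttctaagaaccgagtaatggtgtagaacac
Ctnnb1 A_52_P472397: aagggacatggagtgtaatgtactgttgtg
Ctnnb1 A_66_P122220 (p under 0.05, higher): gcagaatacaaatgatgtagagacagctcg
Jup A_66_P136655 (brightest): ttttttcgggggccagttttctcacttgac
Jup A_55_P2739077 (p under 0.05, lower): ctgtttttacagcttggactccggtcatta
Jup A_65_P13547: ccgggatcccatgaaccgcatggagatctt
Pkp4 A_55_P2943420 (brightest): cacttcactgccattttctatgcacatgga
Pkp4 A_55_P2923717 (p under 0.05, higher): gaagaatgcttgtggcgcccttcgaaacct
Pkp4 A_55_P2083419: gtgaaagtgaaatggaagggatgagtgaag

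Beta-catenin, which links cadherins to alpha-catenin and also carries Wnt signals to the nucleus, had 3 tested probes, of which 1 passed the unadjusted threshold and none the adjusted one. On mm9 all 3 lie on the plus strand of chromosome 9: A_66_P122220 at 120860495 to 120860554, A_52_P472397 at 120865275 to 120865334, and the brightest, A_52_P424585, furthest along the strand at 120869274 to 120869333. At the brightest probe the log2 ratio of Ctnnb1 was 0.02, 0.24 and 0.23 in wild-type and -0.08, 0.20, 0.08 and 0.08 in PRA transgenics, and the genotypes overlapped. Its log2 fold change was -0.09 (standard error 0.12, 95% interval from -0.38 to 0.20, limma adjusted p = 0.875). At the probe nearest the 5′ end the log2 ratio was -0.36, -0.22 and -0.04 in wild-type and 0.07, 0.17, 0.39 and 0.02 in PRA transgenics, and all PRA transgenic arrays were above all wild-type arrays. At this probe the log2 fold change was 0.37 (standard error 0.14, 95% interval from 0.04 to 0.70), with an unadjusted limma p of 0.0336 and an adjusted p of 0.51. Both channels were well above background on all 7 arrays, and it differed by 0.42 in Cy5 and by 0.06 in Cy3. The call was lost without wild-type replicate 1 (0.29) or 2 (0.36) and without PRA transgenic replicate 2 (0.37) or 3 (0.30), and with quantile normalization (0.35). The third probe, assigned to another transcript model, gave 0.04. The difference between the probes was not tested, and the files do not say which exons they read.

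Plakoglobin, the catenin shared by adherens junctions and desmosomes, also had 1 of 3 probes past the unadjusted threshold and none past the adjusted one. Its 3 tested probes lie on the minus strand of chromosome 11: A_65_P13547 at 100238038 to 100238097, the brightest, A_66_P136655, at 100232376 to 100232435, and A_55_P2739077, assigned to a cDNA clone and furthest along the strand, at 100228915 to 100228974. At the brightest probe the log2 ratio of Jup was 0.73, 1.22 and 1.12 in wild-type and 1.097, 0.85, 0.28 and 1.35 in PRA transgenics. PRA transgenic replicate 3 was the lowest array and replicate 4 the highest, and the log2 fold change was -0.13 (95% interval from -0.76 to 0.50, limma adjusted p = 0.931). At the cDNA clone probe the log2 ratio was 3.59, 3.71 and 2.48 in wild-type and 1.40, 3.00, 1.50 and 1.69 in PRA transgenics. PRA transgenic replicate 2 lay within the wild-type range, and the other PRA transgenic arrays were below it. The log2 fold change of -1.36 (95% interval from -2.47 to -0.26) had an unadjusted limma p of 0.0219 and an adjusted p of 0.466. In Cy5 alone it was -0.44, while the Cy3 signal, well above background on no array, differed by 0.94. With normexp background correction the log2 fold change was -0.29 and did not pass, and neither did the probe by the methods' t-test (-1.36). The call was lost without any single array except wild-type replicate 3 (-1.76) or PRA transgenic replicate 2 (-1.73), at -1.30 to -1.14. For the third probe the 95% interval ran from -1.32 to 1.32.

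**Figure D3:**
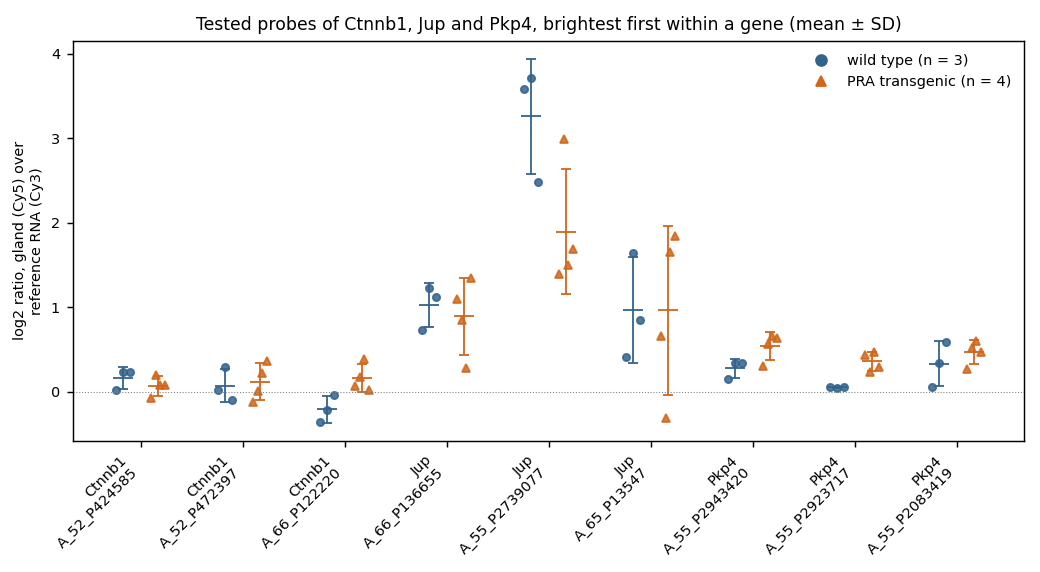
Log2 ratio of gland over reference (y axis) on each array for the 3 tested probes of Ctnnb1, Jup and Pkp4 (x axis, brightest first within a gene), with blue circles for wild-type and orange triangles for PRA transgenic animals and mean ± SD. The genotypes separate at Ctnnb1 A_66_P122220 and Pkp4 A_55_P2923717, and at Jup A_55_P2739077 PRA transgenic replicate 2, at 3.00, lies within the wild-type values.

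The alpha-catenins, which couple the cadherin complex to actin, did not pass the test. Ctnna1, the epithelial form, had log2 ratios of 0.13, 0.43 and 0.21 in wild-type and 0.31, 0.34, 0.37 and 0.21 in PRA transgenics. All PRA transgenic arrays lay within the wild-type range, and the log2 fold change of 0.05 had a 95% interval from -0.23 to 0.34. The other tested probe of Ctnna1 gave 0.12. Ctnna2, the neural form, had the highest log2 fold change of all member probes at 0.44 (limma adjusted p = 0.595). It differed by -0.01 in Cy5 and by -0.44 in Cy3, whose signal was well above background on all 3 wild-type arrays and 1 PRA transgenic array. Ctnna3, a form of heart and testis, could not be tested.

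Ctnnd1, which encodes p120-catenin, had log2 ratios of 0.52, 0.81 and 0.69 in wild-type and 0.36, 0.48, 0.34 and 0.61 in PRA transgenics. Only PRA transgenic replicate 4 lay within the wild-type range. For Ctnnd1 the log2 fold change was -0.23 (standard error 0.13, 95% interval from -0.54 to 0.07, limma adjusted p = 0.653), and its other 2 probes gave 0.07 and 0.11. Ctnnd2, or delta-catenin, was above the reference on all 7 arrays at 2.83 to 3.88 and had a log2 fold change of 0.02. Its Cy5 and Cy3 signals both differed between the genotypes in the same direction, by 0.60 and 0.59, and Cy3 was well above background on no array. The 7 probes of Ctnnal1, Ctnnbip1, an inhibitor of beta-catenin binding to TCF factors, and the spliceosome-associated Ctnnbl1 all had log2 fold changes below 0, from -0.50 to -0.00449, and none passed the test. Their common sign rested on single arrays: 5 of the 7 were above 0 without wild-type replicate 3, 4 without wild-type replicate 2, 3 without PRA transgenic replicate 4 and 5 with array weights. Ctnnbl1 varied little, with log2 ratios of -0.37 to -0.23 over the 7 arrays.

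Of 9 desmosomal cadherin genes, 2 could be tested. Desmoglein 2 (Dsg2), the desmoglein of simple epithelia, had a log2 ratio of 5.35, 5.05 and 6.18 in wild-type and 4.78, 6.33, 5.65 and 5.17 in PRA transgenics. Wild-type replicate 3 and PRA transgenic replicate 2 were the highest arrays, and the genotypes overlapped. For Dsg2 the log2 fold change was -0.04 (standard error 0.42, 95% interval from -1.02 to 0.93), and its sign turned with quantile normalization (0.04). The other tested probe of Dsg2 gave -0.55 (95% interval from -1.54 to 0.44). The gland signal of Dsg2 was at least 33.2-fold that of the reference, which itself stayed at background level on all 7 arrays. Desmocollin 3 (Dsc3), of basal cell layers, lay at 0.08 to 0.61 and had a log2 fold change of 0.15 (95% interval from -0.23 to 0.52). Desmocollin 2 (Dsc2), the widely expressed desmocollin, has 1 probe, which was well above background on 1 wild-type array and could not be tested. The other untested genes were Dsc1, Dsg1a, Dsg1b, Dsg1c, Dsg3 and Dsg4, the desmosomal cadherins of stratified epithelium and hair. Of these, Dsg1c was well above background on 1 wild-type array and the others on no array. Among 7 keratinocyte markers on the array, 6 could be tested, with a mean log2 ratio of 0.78 to 1.11 in wild-type and 0.72 to 1.18 in PRA transgenics.

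Plakophilins bind desmosomal cadherins to desmoplakin, and all 4 genes could be tested. Pkp2, the form of simple epithelia and heart, had log2 ratios of 0.83, 1.16 and 0.91 in wild-type and 1.03, 0.29, 0.24 and 0.58 in PRA transgenics. PRA transgenic replicate 1 lay within the wild-type range and the other PRA transgenic arrays were below it. For Pkp2 the log2 fold change was -0.43 (standard error 0.22, 95% interval from -0.94 to 0.07, limma adjusted p = 0.608). It passed an unadjusted p of 0.05 without PRA transgenic replicate 1 (-0.60), with quantile normalization (-0.47) and with array weights (-0.50). The other 2 tested probes of Pkp2 gave -0.05 and -0.44.

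Plakophilin 4 (Pkp4), also called p0071 and found at both kinds of junction, had log2 fold changes above 0 at all 3 tested probes. They lie on the plus strand of chromosome 2 of mm9, A_55_P2923717 at 59160624 to 59160683, A_55_P2083419 at 59192592 to 59192651, and the brightest, A_55_P2943420, at 59193202 to 59193260. At the brightest probe the log2 ratio was 0.15, 0.34 and 0.34 in wild-type and 0.30, 0.56, 0.66 and 0.64 in PRA transgenics. Only PRA transgenic replicate 1 lay within the wild-type range, and the log2 fold change was 0.27 (standard error 0.13, 95% interval from -0.05 to 0.58, limma adjusted p = 0.612). It passed an unadjusted p of 0.05 with normexp (0.29), with array weights (0.32) and without PRA transgenic replicate 1 (0.35). At A_55_P2923717 the log2 ratio was 0.06, 0.05 and 0.05 in wild-type and 0.44, 0.24, 0.47 and 0.29 in PRA transgenics, without overlap. Its log2 fold change was 0.31 (standard error 0.11, 95% interval from 0.04 to 0.57), with an unadjusted limma p of 0.0285 and an adjusted p of 0.494. Both channels were well above background on every array, and the probe differed by 0.33 in Cy5 and by 0.03 in Cy3. The call held without PRA transgenic replicate 2 or 4 and was lost without any other single array, at 0.27 to 0.31, and with the replicate block (0.33). The third probe gave 0.14.

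Pkp1 and Pkp3, of stratified and most epithelia respectively, had log2 fold changes of -0.17 and -0.01. Desmoplakin, which anchors keratin filaments to the plaque, was above the reference on all arrays. The log2 ratio of Dsp was 2.68, 1.71 and 2.27 in wild-type and 2.65, 2.47, 1.91 and 2.93 in PRA transgenics. Wild-type replicate 2 was the lowest array and PRA transgenic replicate 4 the highest, and the log2 fold change was 0.27 (95% interval from -0.45 to 0.99). Periplakin (Ppl), a related plakin of the cornified layer, was below the reference on all 7 arrays at its brightest probe, with a log2 fold change of -0.12 (95% interval from -0.68 to 0.43), and its dimmer probe gave -0.70 (95% interval from -1.85 to 0.44).

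Seen over all member probes, the spread followed the reference signal. At the 34 probes whose Cy3 signal was well above background on all 7 arrays, the median standard error of the log2 fold change was 0.18 and the log2 fold changes ranged from -0.50 to 0.37. Of these, 2 passed an unadjusted p of 0.05, both higher, at Ctnnb1 and Pkp4, or 5.88% beside 7.17% of all such probes on the array. At the other 18 probes, the median standard error was 0.36 and the range was from -1.36 to 0.44. Here 3 passed, Cdh7 as higher and the cDNA clone probe of Jup and Cdh9 as lower, or 16.7% beside 14.2% of all such probes. Where 1 gene had more than 1 tested probe, which was so for 13 genes, the probes differed in the sign of the log2 fold change for 4.

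**Figure D4:**
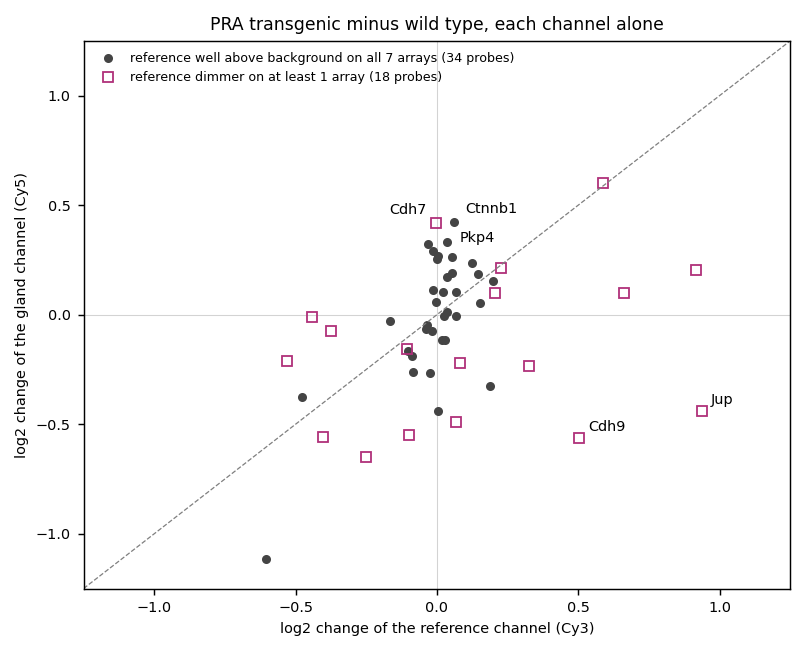
Log2 change between genotypes (PRA transgenic minus wild type) of the reference channel (Cy3, x axis) and the gland channel (Cy5, y axis) for each of the 52 tested probes, each array shifted to a common median; on the dashed line the ratio does not change. The 34 probes with a detected reference lie close to 0 on the x axis with few exceptions, and the named points are the 5 probes with an unadjusted limma p under 0.05, of which Jup (0.94) and Cdh9 (0.50) lie far to the right.

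The genes that work with these junctions were described from 4 lists. Of 21 adherens junction partners, 6 had a log2 fold change above 0 and 15 below, with a median of -0.10 beside 0.02 over all probes. Adam10, the protease that sheds E-cadherin, was the only one with an unadjusted p under 0.05, beside 4.48% of all probes called as lower; by the methods' t-test there were 2, and without wild-type replicate 1, PRA transgenic replicate 2 or PRA transgenic replicate 3, or with the replicate block, 0. Adam10 was outside the rule for named genes and is named after its values were seen. Its log2 ratio was 0.46, 0.14 and 0.21 in wild-type and 0.04, -0.10, -0.21 and -0.06 in PRA transgenics, without overlap. The log2 fold change of Adam10 was -0.35 (limma adjusted p = 0.495). Iqgap1 was lower without overlap as well, at -0.30 (limma adjusted p = 0.571), as were 4.52% of all probes. The lowest and highest of this list were Ezr, a linker of membrane and actin, at -0.56 and Ptprf, a receptor phosphatase, at 0.34. The mean log2 ratio over this list was 0.11 to 0.16 in wild-type and 0.00305 to 0.0817 in PRA transgenics. These means did not overlap between the genotypes. Over all 56605 probes, tested or not, the median log2 ratio of an array was also higher in wild-type, at -0.29 to -0.22 against -0.35 to -0.29. Probe by probe, however, the median log2 fold change over these 56605 probes was 0.04, in the other direction. The part of a shift between arrays in the list means was not tested.

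Of 9 desmosome partners, 6 were above 0 and 3 below, from Krt8 at -0.21 to Evpl, or envoplakin, at 0.35, and 0 had an unadjusted limma p under 0.05. Of 9 transcription factors known to repress cadherin genes, 3 were above 0 and 6 below with a median of -0.23, from Twist1 at -0.49 to Zeb1 at 0.10, and 0 had an unadjusted limma p under 0.05. Of 14 targets and partners of beta-catenin in Wnt signaling, 3 were above 0 and 11 below with a median of -0.09, from Lgr5 at -1.23 to Apc at 0.32, and again 0 had an unadjusted limma p under 0.05. By the methods' t-test the repressors had 1 such gene and the other 2 lists 0.

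The epithelial members were set against the epithelial markers over the 7 arrays. These relations were chosen after the data were seen, so their p-values are given as a description and cannot measure chance. Among 18 relations between 9 junction genes and the marker list of their cell type, each in the ratio and in Cy5 alone, Dsg2 against the luminal markers in Cy5 had the highest Pearson correlation, with r = 0.91 (exact permutation p = 0.000794, Benjamini-Hochberg adjusted 0.0143) and Spearman's rho = 0.89 (exact permutation p = 0.0123, adjusted 0.221). Wild-type replicate 3 and PRA transgenic replicate 2 were the highest arrays of both. Leaving out the 2 arrays farthest from the median of the marker mean gave r = 0.94. In the log2 ratio the same relation had r = 0.36 (exact permutation p = 0.422, adjusted 0.837) and rho = 0.32 (exact permutation p = 0.498, adjusted 0.746). Cdh1 against the luminal markers in Cy5 gave r = 0.79 (exact permutation p = 0.0276, adjusted 0.248) and rho = 0.71 (exact permutation p = 0.0881, adjusted 0.657), and r = 0.74 without the 2 farthest arrays. No other relation had an adjusted p under 0.05. In Cy5 the remaining Pearson correlations were 0.79 for Pkp3, 0.27 for Dsp and 0.09 for Jup against luminal markers, -0.04 for Cdh3 against basal, 0.56 for Cdh5 against endothelial, -0.20 for Cdh11 against fibroblast and 0.26 for Cdh15 against muscle markers. In the log2 ratio the others ranged from -0.63 for Cdh3 to 0.64 for Dsp. For all of them the adjusted permutation p was at least 0.269. Signals of 1 channel on 1 array share its labeling and scan, and within a genotype 3 or 4 arrays were too few for such a relation. In the log2 ratio, Cdh1 against the luminal markers gave only r = 0.21 (exact permutation p = 0.643, adjusted 0.876). Subtracting the luminal marker mean from the Cdh1 log2 ratio is therefore a description and cannot serve as an adjustment for luminal content. After this subtraction the genotypes still overlapped, with 1.55 to 2.34 in wild-type and 1.01 to 2.44 in PRA transgenics.

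**Figure D5:**
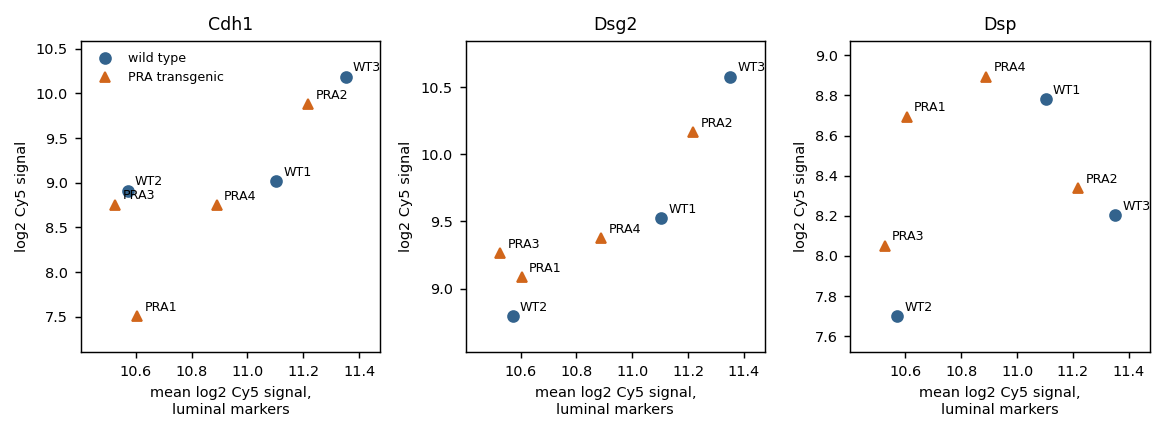
Log2 Cy5 signal (y axis) of Cdh1, Dsg2 and Dsp against the mean log2 Cy5 signal of 12 luminal markers (x axis) on each of the 7 arrays (WT, wild type; PRA, PRA transgenic), each array shifted to a common median. Dsg2 (r = 0.91) and Cdh1 (r = 0.79) are highest on WT3 and PRA2, where the markers are highest, and Dsp (r = 0.27) is not.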

How the data were processed

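RNA of 7 mammary glands was hybridized to Agilent arrays of 60-base probes. The authors deposited scanner output of Agilent Feature Extraction, with background-subtracted, dye-normalized intensity values. The submitters' processing notes name version 12.0, while the headers of the scanner output carry a different version number. A series table was also deposited, whose log2 values proved to be the same ratios, centered probe by probe. From the processed intensities log2(Cy5/Cy3) was computed after removal of control and outlier spots, with the mean taken over replicate spots. A probe was kept if Cy5 was well above background in all animals of a genotype (34284 of 56605). Genotypes were compared by limma 3.58.1 (lmFit, eBayes; R 4.3.3), two-sided, with Benjamini-Hochberg adjustment. Probe positions, as deposited, are on mm9. The brightest probe in Cy5 stands for a gene.

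Members and lists were chosen with earlier results of these data known. Named with values on every array were Cdh1, Cdh2, Cdh3, Cdh5, Cdh11, Cdh13, Ctnna1, Ctnnb1, Ctnnd1, Jup, Dsp, Dsg2, Dsc2 (untested), Pkp2 and members at p under 0.05 whose genotypes did not overlap, besides the lowest and highest gene of each of the junction and signaling lists. Cdh9 and Adam10 were outside this rule and were named after their values were seen. Lists of 10 cell types were computed. Those not described by name in the report ranged, as mean log2 ratios over the 7 arrays, from 2.62 to 3.07 (basal epithelium), 2.68 to 3.25 (luminal epithelium), 2.49 to 3.00 (fibroblast), 2.16 to 2.74 (Schwann cell), 5.70 to 6.36 (white adipocyte) and 2.47 to 3.35 (macrophage). The relations to marker lists were chosen after the data were seen.

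On simulated data with 200 of 34248 probes changed, limma found 88 of 100 2-fold and 98 of 100 4-fold changes at an unadjusted p under 0.05, with 5.05% of unchanged probes. Whether these rates hold for the member probes, in particular those with a dim reference, was not tested. Alternatives were normexp with offset 50 and loess, the series table, other filters, quantile normalization, Cy5 alone, array weights, an intensity trend, the methods' t-test, a replicate block, and each array left out.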

Additional observations from a re-analysis of the deposited data

Results flagged for a closer look

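Among the PRA transgenic arrays, the log2 ratio of 1 array lay apart from the other 3 for 2 of the 15 junction genes examined, where chance alone flags about 1 in 20 groups, or 0.75 of 15. For Cdh5, PRA transgenic replicate 2 was at 5.61 and the others at 7.30 to 7.60, a gap of 0.852 of the whole range. Its gland signal in Cy5 did not lie apart, at 10.31 against 10.30 to 10.36. The gap came from Cy3, at 4.70 against 2.71 to 3.07, which was well above background on no array. For Cdh2 the same array was at -2.59 and the others at -2.16 to -2.09, a gap of 0.858 of the range. Without this array the log2 fold changes of Cdh5 and Cdh2 were -0.09 and 0.27.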

How the results depend on the processing

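The number of member probes at an adjusted p under 0.05 was 0 under every alternative run. At an unadjusted p under 0.05 it was 5, but 15 (5 higher, 10 lower; 9.11% of all probes) with no filter on dim probes, where 5 of the 10 lower ones were above background on no array, 2 with both channels above background on all arrays (8.96% of all probes), 9 with array weights (11.8%), and 2 to 6 with each array left out (6.65% to 12.3%). With a 1.5-fold difference added it was 2, but 0 with normexp, 12 with no filter, 0 with both channels above background, 1 in Cy5 alone, 1 by the methods' t-test, 4 with the replicate block, and 1 to 3 with each array left out. The median log2 fold change went from -0.11 to 0.08 with each array left out. The log2 fold change of Dsg2 turned to 0.0356 with quantile normalization, 0.14 with array weights and 0.0591 with the replicate block, and that of Cdh9 to 0.19 with normexp. With each array left out it went from -0.33 to 0.28 for Dsg2, from -0.0117 to 0.14 for Ctnna1 and from -0.28 to 0.0731 for Jup. The cause was not tested.

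The labels do not say whether equal replicate numbers mark paired animals. The deviations of equal numbers correlated at 0.10, -0.30 and 0.04 for numbers 1 to 3. Over all pairs of a wild-type and a PRA transgenic array, the correlations ran from -0.30 to 0.38. Such values cannot decide whether animals were paired. With the replicate block, 5 member probes had an unadjusted p under 0.05 (2 higher, 3 lower; 9.83% of all probes), among which Cdh3 (-0.73) was gained while Cdh7 (0.50) and Pkp4 A_55_P2923717 (0.33) were lost. With 1 slide in all, no slide block could be fitted. Where Cy3 was not above background, ratios rest on a dim denominator.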
